A study of Homo sapiens with 6 samples.

Results

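The BCL2 family decides whether the mitochondrial pathway of apoptosis starts. Pro-survival members (BCL2, BCL2L1 and MCL1) hold the effectors BAX and BAK1 in check, and BH3-only members (BID, BAD, BBC3, PMAIP1 and BCL2L11) bind the survivors or the effectors and release the brake. Free BAX and BAK1 form pores in the outer mitochondrial membrane, through which cytochrome c leaves to activate caspases. EGLN3, a prolyl hydroxylase that uses oxygen to mark hypoxia-inducible factors, has been tied to apoptosis in neurons that lose their growth factor. The 10 genes were taken by symbol, 3 pro-survival and 7 pro-death, and each had 1 of the 58735 annotated genes of the deposited tables. All 10 passed the filter on low counts, as did 15726 genes in all.

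The cells were NCI-N87, an established human gastric cancer line. In 3 libraries they carried PLVX-IRES-Puro with EGLN3 (genotype label EGLN3 overexpression) and in 3 control libraries the same vector empty, and all 6 went through 7 days of puromycin. The labels give 1 day with the plasmid before that, except 5 days for EGLN3 replicate 3. The labels do not say whether the resistant cells were a pool or 1 clone, or whether replicates were separate cultures, so a p-value here measures a spread among libraries that may be technical. In bulk RNA, fewer cells expressing a gene and less of its RNA per cell cannot be told apart. Totals were 15157265 to 16767383 counts per library. EGLN3 had 9 to 11 counts in the controls and 7298 to 27674 with the plasmid, lowest in EGLN3 replicate 1. The 6 epithelial markers EPCAM, CDH1, KRT8, KRT18, KRT19 and ERBB2 were all well above the filter. Of 8 markers of blood, stromal and endothelial cells, 7 did not pass it and had at most 7 counts in a library. The summed counts of those 8 were 78 to 93 in controls and 59 to 77 with EGLN3, mostly from COL1A1 (4.90 CPM, counts per 1e+06 after scaling, against 4.03, groups not overlapping), and their part in the results was not tested.

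Members of the family share a short BH3 segment, in which a leucine and, 5 residues on, an aspartate sit on the face that docks into a partner. The coding stretches of 18 bases below, from GENCODE 29 transcripts on GRCh38, are shown because they are what defines the family and because they differ in GC content. Capitals mark the leucine codon and the last 2 codons, which end with the aspartate, and each stretch lies within 1 coding exon.
BCL2 (chr18:63318361-63318378, minus strand): CTCcgccaggccGGCGAC
BCL2L1 (chr20:31721934-31721951, minus strand): CTGagggaggcaGGCGAC
MCL1 (chr1:150578877-150578894, minus strand): TTAcgacgggttGGGGAT
BAX (chr19:48955787-48955804, plus strand): CTCaagcgcatcGGGGAC
BAK1 (chr6:33575399-33575416, minus strand): CTCgccatcatcGGGGAC
BID (chr22:17739427-17739444, minus strand): CTCgcccaggtcGGGGAC
BAD (chr11:64271634-64271651, minus strand): CTCcggaggatgAGTGAC
BBC3 (chr19:47226591-47226608, minus strand): CTGcggcggatgGCGGAC
PMAIP1 (chr18:59902673-59902690, plus strand): CTCaggagatttGGAGAC
BCL2L11 (chr2:111150103-111150120, plus strand): TTGcggcgtattGGAGAC

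Among pro-survival genes, BCL2L1 and MCL1 RNA was abundant and BCL2 RNA was scarce. Levels between genes are given as deposited FPKM, which scales counts by gene length and library. BCL2L1, which encodes BCL-xL, stood at 68.7, 87.05 and 104 FPKM in the controls and at 119, 73.0 and 61.9 FPKM under EGLN3, in the order of replicates 1 to 3 that is kept throughout. It was the highest of the 10 genes in 5 of 6 libraries, and in the sixth, EGLN3 replicate 3, MCL1 was higher. MCL1, a short-lived protein that captures BAK1 and BCL2L11, stood at 67.7, 57.4 and 54.8 FPKM in the controls and at 49.2, 65.0 and 64.9 FPKM under EGLN3. BCL2 itself, the founding survivor, had 0.695, 0.495 and 0.476 FPKM in the controls and 0.385, 0.680 and 0.767 FPKM under EGLN3. It was the lowest of the 10, with 13.9% of tested genes below its control mean, against 97.2% for BCL2L1 and 95.7% for MCL1. The groups overlapped for all 3 survivors, and EGLN3 replicate 1 held the highest BCL2L1 and the lowest MCL1 and BCL2 of the 6 libraries.

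The effectors were both expressed. BAX, the effector that moves from cytosol to mitochondria, had 28.1, 36.1 and 44.0 FPKM in the controls and 54.0, 26.4 and 21.0 FPKM under EGLN3, so that the EGLN3 libraries held both the highest and the lowest value. BAK1, the effector that resides at the mitochondrion, had 15.1, 18.1 and 18.1 FPKM in the controls and 20.6, 16.5 and 14.1 FPKM under EGLN3. The EGLN3 libraries again held both extremes.

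The BH3-only genes spanned a wide range of levels. PMAIP1, which encodes NOXA, a partner of MCL1, had 27.7, 24.6 and 25.5 FPKM in the controls and 25.6, 27.2 and 26.1 FPKM under EGLN3. It was the steadiest of the 10 genes, with a highest library 1.13 times the lowest in scaled counts. BID, which links death receptors to mitochondria once caspase-8 cuts it, had 20.8, 26.8 and 28.0 FPKM in the controls and 32.7, 22.0 and 20.5 FPKM under EGLN3. BAD, a growth factor sensor that binds BCL2L1, had 11.9, 17.4 and 22.0 FPKM in the controls and 27.5, 12.7 and 9.96 FPKM under EGLN3. BAD was the least steady, with a highest library 2.72 times the lowest in scaled counts. BCL2L11, which encodes BIM and binds all the survivors, had 5.01, 4.35 and 4.65 FPKM in the controls and 5.01, 5.55 and 5.81 FPKM under EGLN3. BBC3, which encodes PUMA, had 1.01, 1.01 and 0.821 FPKM in the controls and 1.12, 0.721 and 0.889 FPKM under EGLN3, from 39 to 56 counts per library. Both groups overlapped in FPKM for 4 of these 5 genes. For BCL2L11 they touched without overlapping, with the lowest EGLN3 library at 5.013 FPKM and the highest control at 5.008 FPKM. It was 1 of 10 members so placed in FPKM, where 6.23% of all tested genes had groups that did not overlap (2.87% higher and 3.36% lower with EGLN3).

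**Figure D1:**
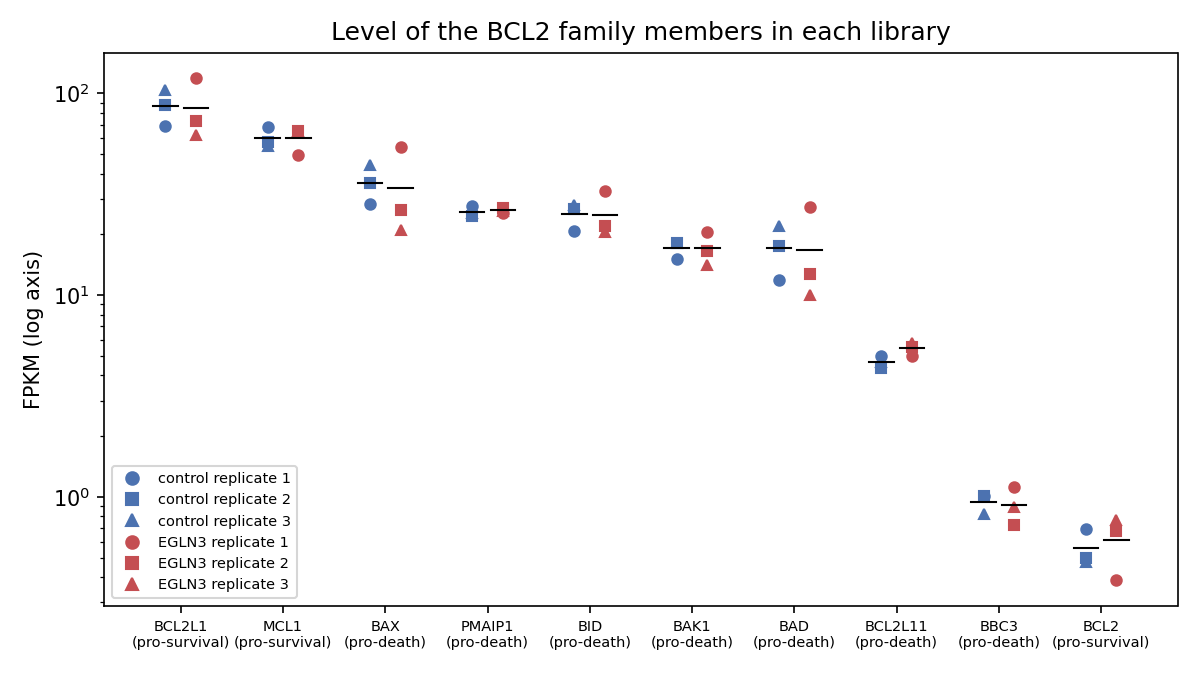
Deposited FPKM (log axis) of the 10 members in each of the 6 libraries, ordered by control mean; black bars are group means of 3 libraries. BCL2L1 and MCL1 lead at control means of 86.4 and 60.0 FPKM, BCL2 is last at 0.555 FPKM, and the groups overlap for 9 of 10 members, with those of BCL2L11 touching near 5.01 FPKM.

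By control mean the order was BCL2L1 at 86.4 ± 17.4 FPKM, MCL1 at 60.0 ± 6.85 FPKM, BAX at 36.1 ± 7.94 FPKM and PMAIP1 at 25.9 ± 1.57 FPKM (SD, n = 3). BID followed at 25.2 ± 3.86 FPKM, BAK1 at 17.1 ± 1.75 FPKM, BAD at 17.1 ± 5.04 FPKM and BCL2L11 at 4.67 ± 0.328 FPKM (SD, n = 3). BBC3 at 0.948 ± 0.109 FPKM and BCL2 at 0.555 ± 0.122 FPKM closed it (SD, n = 3). Neighbours in that order overlapped across controls for PMAIP1 and BID and for BAK1 and BAD, and the other 7 neighbouring pairs did not. The order of the EGLN3 means was the same at all 10 places. The order depends on the gene length used, because FPKM divides by the length of all annotated exons and these genes have unequal numbers of isoforms. With the longest GENCODE transcript instead, 4 of 10 places stayed and BAX, at 68.7, came before MCL1, at 66.7 on that scale. Isoforms with opposite roles, such as the long and short forms of BCL2L1 and MCL1, cannot be told apart in counts per gene.

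No member of the family passed the test for a difference with EGLN3. In edgeR's quasi-likelihood test 0 of 10 had an adjusted p under 0.05, where 0.00636% of all 15726 genes did (EGLN3 itself), and 0 of 10 had an unadjusted p under 0.05, against 1.11% of all genes. DESeq2 and limma-voom also called 0 of 10, each with 0 at an unadjusted p under 0.05. Over all 15726 genes they called 1 and 0, so limma-voom did not call even EGLN3. They had 163 and 190 genes at an unadjusted p under 0.05, so 0 of 10 members is near the share over all genes. In TMM-scaled counts, unlike FPKM, the groups overlapped for all 10 members including BCL2L11, while 6.26% of all genes had groups that did not overlap (2.64% higher and 3.62% lower with EGLN3). The median log2 fold change was -0.0093 over the 3 pro-survival members and -0.011 over the 7 pro-death members, beside 0.010 over all tested genes. Without EGLN3 replicate 1 these medians were 0.13 and -0.22, and with all libraries in a fit corrected for library trends, described further on, 0.035 and 0.070. Members with a positive log2 fold change numbered 1 of 3 and 2 of 7, against 52.2% of all genes.

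The intervals, each for 1 gene and not adjusted for the number of genes, show what sizes of change these libraries leave room for. A call needed an adjusted p over all tested genes, so changes beyond these bounds could also have gone uncalled. Levels here are CPM after TMM scaling. The control mean of MCL1 was 265 ± 31.6 CPM and its EGLN3 mean 264 ± 41.3 CPM (SD, n = 3 each), a log2 fold change of -0.0093 with a 95% interval from -0.41 to 0.40. For BCL2L1 these means were 290 ± 57.3 CPM and 283 ± 99.5 CPM (SD, n = 3 each), a log2 fold change of -0.035 with an interval from -0.70 to 0.63. BCL2 had a log2 fold change of 0.14 with an interval from -0.59 to 0.86. For the survivors these bounds leave room for changes of up to 1.32-fold in MCL1, 1.55-fold in BCL2L1 and 1.81-fold in BCL2 upward. Downward they leave room for falls to 0.750, 0.615 and 0.666 of the control level, in the same order. PMAIP1 had the narrowest interval of the 10, from -0.27 to 0.30 around 0.014. BAX, at -0.099, and BAD, at -0.039, had the widest, from -0.98 to 0.78 and from -1.03 to 0.95. BID was at -0.011 (interval -0.54 to 0.51), BBC3 at -0.068 (interval -0.63 to 0.50) and BAK1 at -0.0074 (interval -0.42 to 0.41), where the sign of BAK1 turned to 0.00090 with RLE scaling. BAD and BAX moved most with 1 library. EGLN3 replicate 1 had the fewest EGLN3 counts of its group and the highest score, 59.4, on the main axis described further on. Without it, BAD was at -0.58 (edgeR unadjusted p = 0.067, adjusted p = 0.48) and BAX at -0.59 (edgeR unadjusted p = 0.028, adjusted p = 0.48). In that fit 1409 of 16129 genes had an unadjusted p under 0.05. With the same library left out of the corrected fit, described further on, BAD was at 0.077 and BAX at -0.14. The cause of these shifts was not tested.

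BCL2L11 had the largest difference and the smallest p of the 10 without passing. Its controls were at 33.9, 29.2 and 31.3 CPM and its EGLN3 libraries at 33.5, 37.2 and 39.3 CPM, so 2 of 3 EGLN3 libraries lay above every control and EGLN3 replicate 1 lay just under control replicate 1 on this scale. The log2 fold change came to 0.22 (SE 0.13, interval -0.093 to 0.54; edgeR unadjusted p = 0.14, adjusted p = 1). This was the 1 member whose sign was positive in every alternative that was run, with values from 0.14 to 0.30 when 1 library was left out. The alternatives reuse the same libraries, and BCL2L11 was singled out as the largest of the 10 estimates. Its constant sign is therefore no further support for a rise. The exons of BCL2L11 share 727 of 6658 bases with MIR4435-2HG on the opposite strand, which had a mean of 576 counts. BCL2L11 itself had 458 to 630 counts per library, and the use of strand in counting is not stated.

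**Figure D2:**
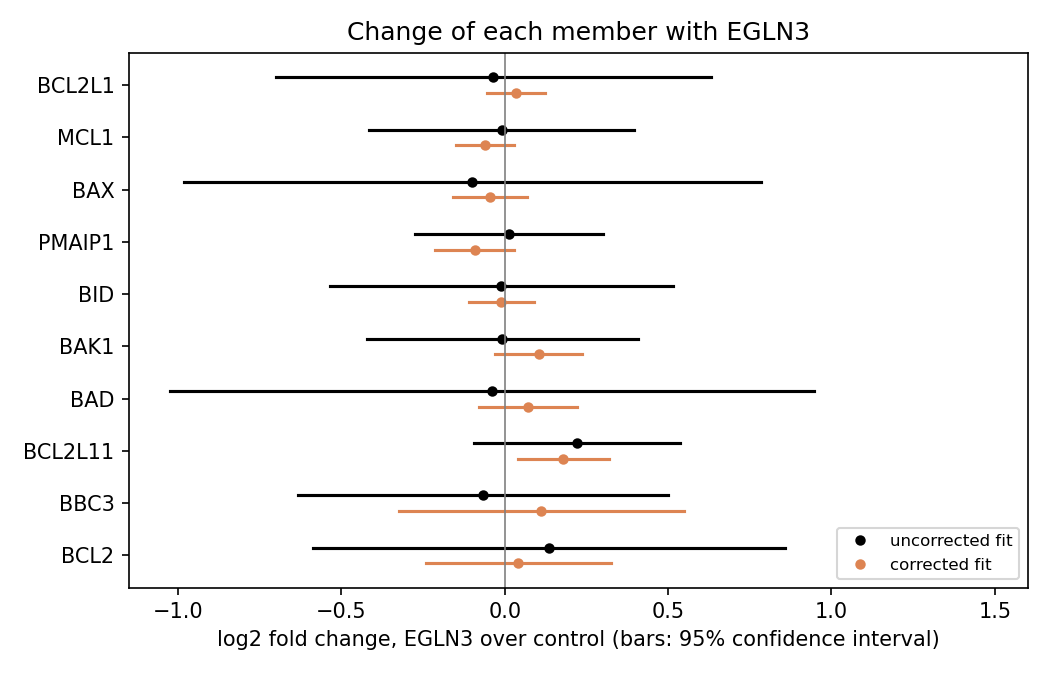
Log2 fold change of each member, EGLN3 over control, with its 95% confidence interval, in the uncorrected fit (black) and in the fit with a surrogate variable and GC and length trends (orange). Each black interval crosses 0, and in orange the interval of BCL2L11, from 0.039 to 0.32, is the one that does not.

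For 9 of 10 members the group means differed in CPM by less than the SD of either group, the exception being BCL2L11. The same count was not made over all tested genes, so it cannot be read as particular to the family. For 7 of 10 the libraries were ordered largely along the main axis of the whole data set. The first principal component of log2 CPM held 70% of the variance and placed EGLN3 replicate 1 at 59.4, control replicates 3 and 2 at 34.4 and 11.5, EGLN3 replicate 2 at -23.3, control replicate 1 at -36.2 and EGLN3 replicate 3 at -45.9. BAD, BCL2L1, BID, BAX and BAK1 were higher toward EGLN3 replicate 1, with Pearson's r over the 6 libraries of 1.00, 1.00, 0.99, 0.98 and 0.97. MCL1 and BCL2 were lower in that direction, with r of -0.98 and -0.99, while PMAIP1, BCL2L11 and BBC3 were less tied to it, with r of -0.68, -0.62 and 0.35. These values describe 6 libraries, and the members enter the axis themselves. Among all tested genes r was above 0.8 for 27.7% and below -0.8 for 4560 of 15726. Survivors stood on both sides, BCL2L1 with the pro-death genes BAX and BAD, and MCL1 and BCL2 opposite.

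**Figure D3:**
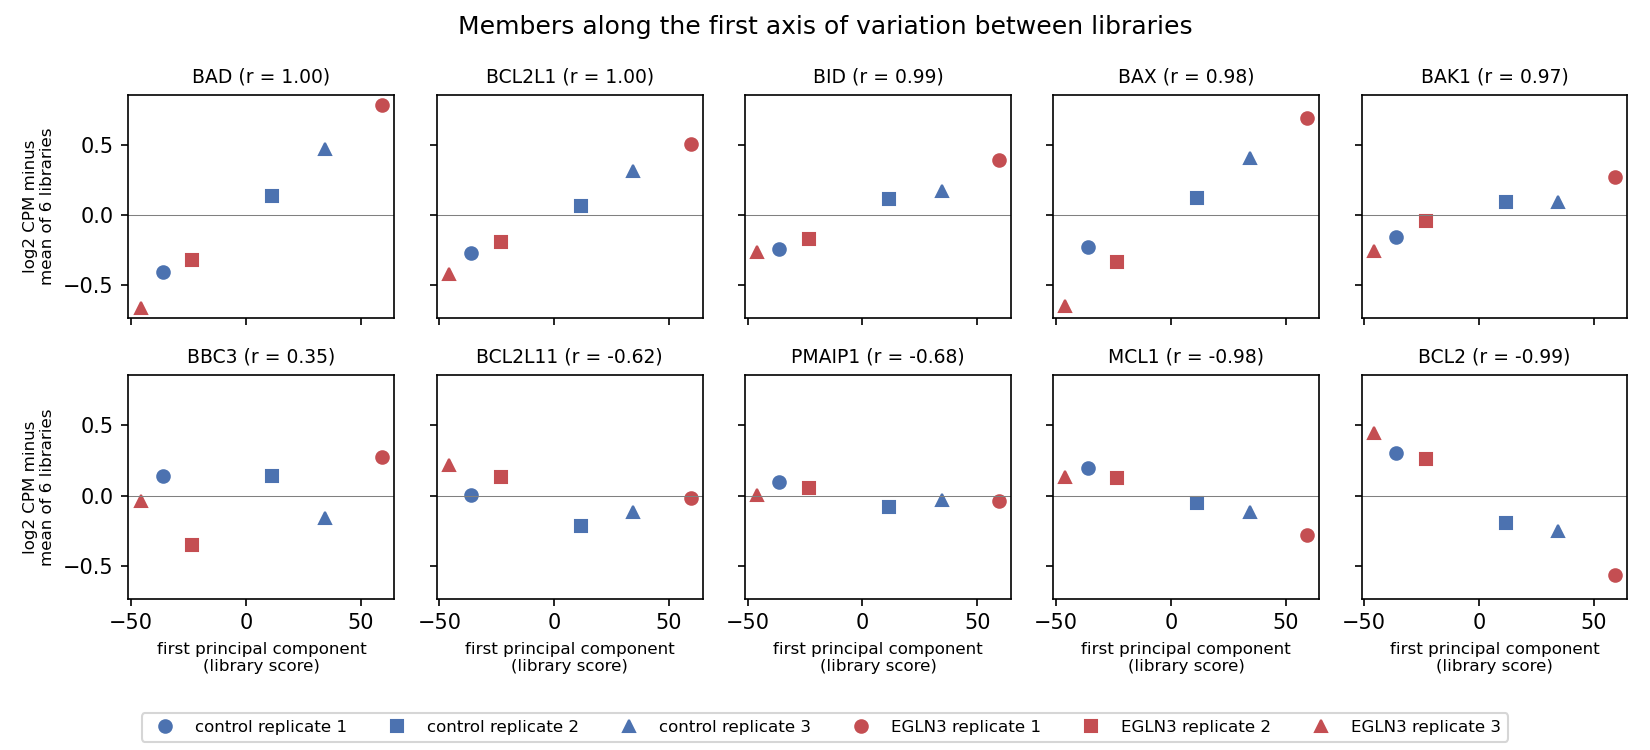
Log2 CPM of each member minus its mean over the 6 libraries, against the library's score on the first principal component; blue is control, red is EGLN3, and the marker gives the replicate. BAD, BCL2L1, BID, BAX and BAK1 climb with the score, MCL1 and BCL2 descend, and in those 7 panels the colours are mixed along the trend.

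The members' base composition ran alongside. The longest transcripts of the 5 genes with r above 0.8 had a GC content of 49.7% to 66.3%. The 4 genes with negative r lay between 37.2% (PMAIP1) and 45.7% (BCL2L11). BBC3, at 69.7% GC the richest of the 10, had a weak r and the second lowest FPKM. The printed BH3 stretches did not order in the same way. BID held 77.8% GC and PMAIP1 50%, but BAD held 61.1%. BCL2, with r of -0.99, held the most, at 83.3%. The part of base composition or of RNA quality in the axis was not tested.

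When the axis was modelled, the intervals narrowed and still no member passed. A fit with 1 surrogate variable and with each library's trends on GC content and transcript length removed, called the corrected fit, had 0 of 10 members with an adjusted p under 0.05, against 1.07% of all genes. This correction follows an earlier look at these data, and its p-values leave out the uncertainty of the estimated variable, so they may be too small. MCL1 was at -0.060 (interval -0.15 to 0.030), BCL2L1 at 0.035 (interval -0.053 to 0.12) and BAX at -0.045 (interval -0.16 to 0.070). BCL2L11 was at 0.18 (SE 0.068, interval 0.039 to 0.32; edgeR unadjusted p = 0.014, adjusted p = 0.23). It was 1 of 10 members with an unadjusted p under 0.05 there, beside 13.4% of all genes. Log2 fold changes of the 10 lay between -0.092 (PMAIP1) and 0.18 (BCL2L11) in the corrected fit. Signs of BCL2L1, BAK1, BAD, BBC3 and PMAIP1 differed between both fits.

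The balance of survivors and killers overlapped between the groups. The 3 survivors made up 55.6%, 53.0% and 52.6% of the summed FPKM of the 10 genes in the controls, and 50.3%, 55.5% and 56.5% under EGLN3. The means were 53.7% ± 1.61 and 54.1% ± 3.32 (SD, n = 3 each), and the groups overlapped. On longest transcript lengths they were 48.0% ± 1.84 and 48.6% ± 3.81, so whether survivors made up the larger part depends on the length used, while the groups overlapped on both scales. The ratio of BAX to MCL1 in FPKM was 0.415, 0.629 and 0.803 in the controls, and 1.10, 0.406 and 0.324 under EGLN3, with both extremes in EGLN3 libraries. BAX to BCL2L1 was much steadier, at 0.409, 0.415 and 0.425 in the controls, and 0.454, 0.361 and 0.340 under EGLN3. BAX to BCL2, the ratio often quoted for this family, lay between 40.5 and 92.5 in the controls and between 27.4 and 140 under EGLN3, on 69 to 147 BCL2 counts per library. No test was made of these scores, because the members were chosen for them.

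**Figure D4:**
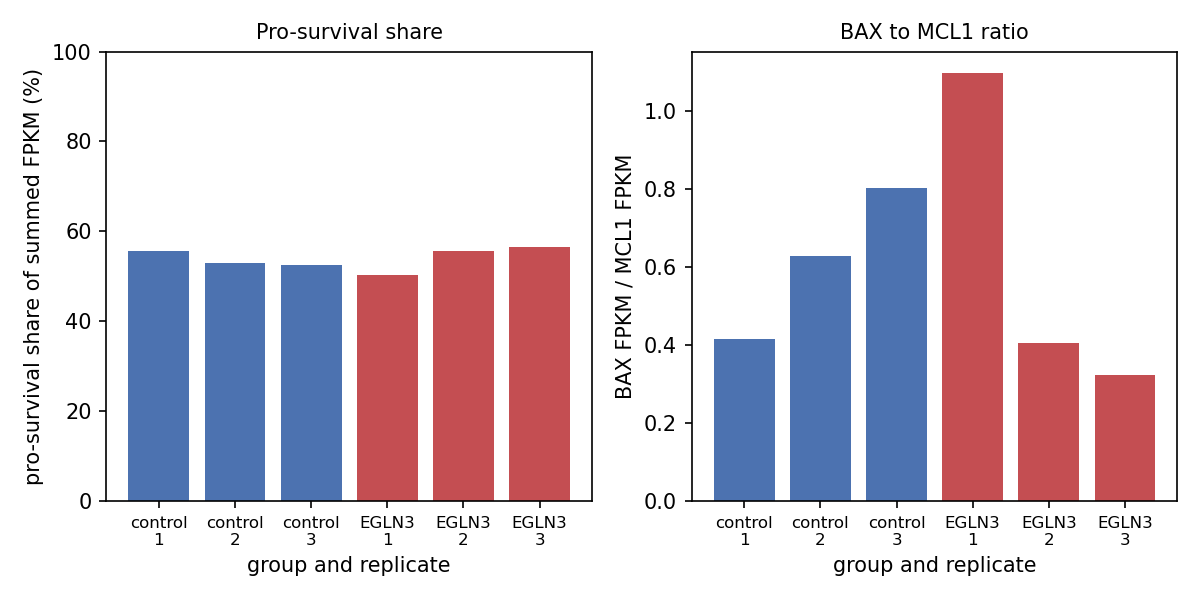
Left, share of the summed FPKM of the 10 members held by BCL2, BCL2L1 and MCL1 (percent); right, ratio of BAX to MCL1 FPKM; 1 bar per library, blue for control and red for EGLN3. The share stays between 50.3% and 56.5%, while the ratio spans 0.324 to 1.10 within the EGLN3 group.

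Other genes of the apoptosis machinery did not pass either. The lists held 52 further genes in 53 rows, of which 50 rows were tested, and 0 were called in the uncorrected fit. At an unadjusted p under 0.05 there was 1 of 50 (edgeR), beside 1.11% of all genes, and in the corrected fit 12 of 50, beside 13.4%. Their median log2 fold change was 0.062 with 32 of 50 positive, beside 0.010 and 52.2% over all genes. Among relatives of the 10, the survivor BCL2L2 was at 0.094 (SE 0.12), and BCL2A1 and BCL2L10 had at most 4 counts in a library and were not tested. The BH3-only genes HRK and BMF were at 0.27 (SE 0.20) and 0.10 (SE 0.29), and 0 of 4 pro-death relatives, which include the effector-like BOK, passed. Among genes of the apoptosome and of mitochondrial release, 0 of 7 tested passed. The mitochondrial nuclease ENDOG was at -0.44 (SE 0.30) and the flavoprotein AIFM1 at -0.14 (SE 0.15). DIABLO has 2 overlapping gene rows in the deposited table, and the division of its reads is uncertain. Among 9 caspases and nuclease subunits 0 passed, with the initiators CASP8 at 0.23 (SE 0.15) and CASP10 at 0.20 (SE 0.19).

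Upstream of the family, FADD came closest in the uncorrected fit. FADD, the adaptor that brings caspase-8 to death receptors, had controls at 24.6, 28.0 and 21.7 CPM and EGLN3 libraries at 15.2, 21.4 and 18.7 CPM, which did not overlap. The log2 fold change came to -0.42 (SE 0.18; edgeR unadjusted p = 0.0497, adjusted p = 1) and -0.32 in the corrected fit (edgeR adjusted p = 0.10), so it did not pass in either. RIPK1, a kinase of the same complexes, was at 0.070 (SE 0.14), and 0 of 8 genes of that list passed. Among 5 inhibitor of apoptosis proteins 0 passed in the uncorrected fit, with BIRC3, an NF-kB target and ubiquitin ligase, at 0.53 (SE 0.24) and BIRC2 at 0.24 (SE 0.16). BIRC3 was the 1 of 50 called in the corrected fit, where 1.07% of all genes were, at 0.36 (SE 0.064; edgeR adjusted p = 0.0039). Its controls were at 42.4, 34.0 and 29.9 CPM and its EGLN3 libraries at 35.7, 55.9 and 61.5 CPM, with replicate 1 among the controls.

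Genes that control the members' transcription or the turnover of MCL1 did not pass either. Of 11 transcription regulators 0 passed, with TP73 at -0.45 (SE 0.21) and FOXO1, a forkhead factor, at 0.29 (SE 0.26). Of 5 genes of MCL1 protein turnover 0 passed, with the ubiquitin ligase TRIM17 and BTRC, a substrate receptor of another, at 0.76 (SE 0.70) and 0.11 (SE 0.17). TRIM17 had only 9 to 60 counts per library.

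Promoter letters are shown for the member with the largest difference and for the effector that varied most. They come from RefSeq on GRCh38.p14, 250 bases before to 50 after a start site, and 9 of the 10 members matched (MCL1 had no entry). Capitals mark TGTTTAC, the core of forkhead FOXO sites, in BCL2L11 (chr2:111120664-111120963, plus strand), and CACGTG, the E-box bound by MYC and related factors, in BAX (chr19:48954625-48954924, plus strand), on either strand.
BCL2L11: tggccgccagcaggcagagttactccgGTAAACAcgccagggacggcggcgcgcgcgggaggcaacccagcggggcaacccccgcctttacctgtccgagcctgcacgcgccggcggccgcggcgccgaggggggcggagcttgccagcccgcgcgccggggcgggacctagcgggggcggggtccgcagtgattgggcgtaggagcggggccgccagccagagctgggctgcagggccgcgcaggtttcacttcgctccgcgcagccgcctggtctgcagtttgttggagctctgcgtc
BAX: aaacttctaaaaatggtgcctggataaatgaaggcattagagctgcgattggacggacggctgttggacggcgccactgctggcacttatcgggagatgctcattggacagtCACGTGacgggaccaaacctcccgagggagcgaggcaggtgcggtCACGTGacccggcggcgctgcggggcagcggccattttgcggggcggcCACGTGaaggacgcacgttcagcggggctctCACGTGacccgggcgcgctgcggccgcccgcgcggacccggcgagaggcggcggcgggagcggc

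The BCL2L11 window holds 1 TGTTTAC match, which 3.42% of 35116 promoters have and no other member with an entry has. The BAX window holds 4 CACGTG matches, and at least 1 stands in 7.26% of all promoter entries. Of the members, BAX, BBC3 and BID had it in at least 1 entry, where BID has 5 entries. The shorter ACGTG, the core of the HIF response element, overlaps that E-box. It was found in 21.4% of promoter entries and in at least 1 entry of the same 3 members. A match is a description of letters, and occupancy was not measured here.

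Genes most like the leading survivor and the leading killer in pattern over the 6 libraries were those of the same axis. For BCL2L1 they were CD81, COX6A1 and PGLS, with Pearson's r of log2 CPM from 0.9994 to 0.99996 (n = 6). For BAX, the most abundant pro-death gene, they were RPLP2, CDC42EP5 and AP1M2, each with r between 0.9993 and 0.9994 (n = 6). All 6 were highest in EGLN3 replicate 1 and lowest in EGLN3 replicate 3, and these correlations share the same 6 libraries and the same axis.

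Some counts are uncertain because annotated exons overlap. BCL2L1 (ENSG00000171552) shares 1424 of its 3314 exonic bases with the antisense gene ABALON. BAD (ENSG00000002330) shares 404 of 1708 with GPR137 on the opposite strand, which had a mean of 413 counts. The use of strand in counting is not stated in the labels. Reads from those bases, and from the bases that BCL2L11 shares with MIR4435-2HG, thus cannot be assigned with certainty. MCL1 and BAK1 share 2 and 91 bases with neighbours, and BBC3 contains 2 microRNA genes with a mean of 0 counts. The processed pseudogene BAK1P1 had 5 to 20 counts per library, against 509 to 692 for BAK1.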

How the data were processed

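The authors deposited whole-number counts per gene, unscaled, and FPKM for 6 libraries. The submitters' processing notes list hg38, featureCounts 1.5.0-p3, HISAT2 2.0.5 and, for an unstated purpose, DESeq2 1.20.0. The deposited FPKM equal counts over gene length and 1 factor per library. Counts (15157265 to 16767383 per library) passed filterByExpr, TMM scaling and, in R 4.3.3, edgeR 4.0.16 (quasi-likelihood test, robust), with p adjusted by Benjamini and Hochberg over 15726 genes, with adjusted p under 0.05 as a call. SE is the log2 fold change over the square root of F, and 95% intervals use edgeR's degrees of freedom. The corrected fit adds 1 surrogate variable (sva 3.50.0) and splines with 5 degrees of freedom on GC content and length of the longest GENCODE 29 transcript, known for 99.96% of tested genes. limma 3.58.1 and DESeq2 1.42.0 served as alternatives. The members and lists were chosen with earlier results of these data known. Named were all members, of each list the 2 genes with the smallest p, EGLN3, and the 3 protein-coding genes most correlated with the leading survivor and killer. DIABLO, BCL2A1, BCL2L10 and BOK were named after their values were seen. Some genes of the lists are not reported here.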

Additional observations from a re-analysis of the deposited data

How the results depend on the processing

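The count of 0 members called held under each alternative that was run, including both sets of fits without 1 library. Limma-voom, the replicate block, log2(FPKM + 1) and most uncorrected fits without 1 library called no gene at all, not even EGLN3. In those fits a count of 0 says little about the members. The smallest adjusted p of a member over the 10 alternatives on all 6 libraries was 0.10 (BCL2L11, surrogate variable alone, edgeR). The number of genes called was 1 in the uncorrected fit. It was 0 with limma-voom, with the replicate block and with log2(FPKM + 1), 749 with the surrogate variable alone and 168 with GC and length trends as well. It ran from 0 to 1 when each library was left out, and from 50 to 244 when each was left out of the corrected fit, an alternative added after seeing the data. Deviations of same-numbered libraries from their group means had correlations of -0.79, -0.18 and -0.67. The main axis, with 70% of the variance, weighs heavily in these deviations, and they sum to 0 within each group. They therefore cannot decide whether the numbers pair the libraries. The replicate block called 0 members. At an unadjusted p under 0.05 there were 174 genes in the uncorrected fit, 163 with DESeq2, 190 with limma-voom and 23 with the replicate block.

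Signs of log2 fold changes near 0 turned as follows. In the corrected fit BCL2L1 was at 0.035, BAK1 at 0.10, BAD at 0.070, BBC3 at 0.11 and PMAIP1 at -0.092. With the surrogate variable alone BAK1 was at 0.0078 and BID at 0.0056, and BAK1 was at 0.00086 with DESeq2 and 0.00090 with RLE scaling. With 1 library left out, in either fit, ranges were -0.58 to 0.22 for BAD, -0.14 to 0.13 for BAK1, -0.59 to 0.15 for BAX, -0.22 to 0.24 for BBC3 and -0.068 to 0.39 for BCL2. They were -0.34 to 0.14 for BCL2L1, -0.23 to 0.11 for BID, -0.085 to 0.13 for MCL1 and -0.14 to 0.066 for PMAIP1. The median of the survivors ranged from -0.068 to 0.13 and that of the pro-death members from -0.22 to 0.11. The cause was not tested. The groups of BCL2L11 overlapped in TMM-scaled CPM and not in FPKM, a comparison added after seeing the data. On longest transcript lengths the survivors' share was 48.0% in controls and 48.6% with EGLN3, and 4 of 10 places in the order stayed. These shifts come only from the length used. Among the members, depth limits BCL2 and BBC3, at 39 to 147 counts per library.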
